A study of Mus musculus with 8 samples.

Results

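The genes described here are 10 intestinal genes of fatty acid uptake and lipoprotein assembly: Fabp1, Fabp2, Fabp6, Cd36, Acsl3, Acsl5, Apoa1, Apoa4, Apob and Mttp. They form a list around Fabp1, the gene that the study follows in the small intestine, and stand among 21951 protein-coding genes of the GENCODE M21 annotation. Each was looked up in 3 lists of RNA regions called as peaks after pull-down of DDX5, a DEAD-box RNA helicase. The colon lists also hold regions without enrichment. Every listed region that overlapped the gene by at least 1 base on its strand was taken. This gave 47 of 1278 regions in the small intestine list, 11 of 16455 in a first colon list and 2 of 9146 in a second colon list.

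The lists came from eCLIPseq, in which UV light links proteins to the RNA they touch, RNase trims the RNA, DDX5 is immunoprecipitated (IP) and its RNA is sequenced. An input of matched fragment size, taken before the IP, serves as background. The small intestine had 2 CLIP and 2 input samples of EDTA-fractionated epithelium of 8-week-old female C57BL/6 mice, wild type in genotype, each replicate being the cells of 1 mouse per the methods. The colon had 1 CLIP and 1 input sample for each of 2 antibody preparations, labelled mAb and rAb. The colon samples are C57BL/6 and are labelled wild type, whereas their growth protocol names mice aged 120 days with a floxed Apc allele (Apcfl/+) and Cre driven by CDX2, a conflict that the labels do not settle. The study's methods name wild-type mice. The mAb and rAb labels carry the same antibody catalogue number, also used in the small intestine, and do not say how they differ. Both colon lists are marked as merges of replicates 1 and 2 although each antibody has 1 CLIP sample in the labels. For each region the authors deposited a log2 fold, which is the IP reads over the input reads after scaling for depth, and a −log10 p from a test on those reads, capped at 400. A region with both values above 3, the cutoffs of the study, is called a site below. The small intestine list was merged over both replicates and held sites only, so 100% of its regions passed, whereas 1.22% of the regions in the mAb list and 1.99% of those in the rAb list were sites. None of the 3 lists gives values per replicate, so no spread between mice can stand beside the values below, and no test between tissues was made.

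After a meal, fatty acids enter the enterocyte with the help of membrane proteins such as CD36, are carried through the cytosol by small fatty acid-binding proteins, and are activated by acyl-CoA synthetases before they are built into triglyceride. Microsomal triglyceride transfer protein loads this fat onto apolipoprotein B in the endoplasmic reticulum, and the resulting chylomicron leaves the cell with apolipoproteins A-I and A-IV on its surface. Most of these proteins are hallmarks of the absorptive enterocyte of the small intestine.

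In the small intestine, 7 of the 10 genes carried at least 1 DDX5 site, where 2% of all protein-coding genes did (439 of 21951). The list was built around Fabp1 and chosen with earlier results of these data known. The 2% counts every annotated protein-coding gene, whether or not its RNA is present in these cells. These shares are therefore not a test of enrichment. Apob held 18 sites, Fabp2 and Apoa4 held 8 each, Apoa1 held 5, Mttp held 4, Fabp1 held 3 and Fabp6 held 1. Cd36, Acsl3 and Acsl5 held none. Sites that abut may come from 1 stretch of bound RNA, and joining sites that lay within 10 bases of each other on the genome left 40 in place of 47. Sites of Fabp2 and Apoa1 that abut only on the spliced mRNA, across an exon join, were not joined by this rule. None of the 47 overlapped a second gene on the same strand. RNA levels were not used here, so the counts are not binding per molecule. In bulk epithelium, fewer cells of a type and less RNA per cell cannot be told apart.

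**Figure D1:**
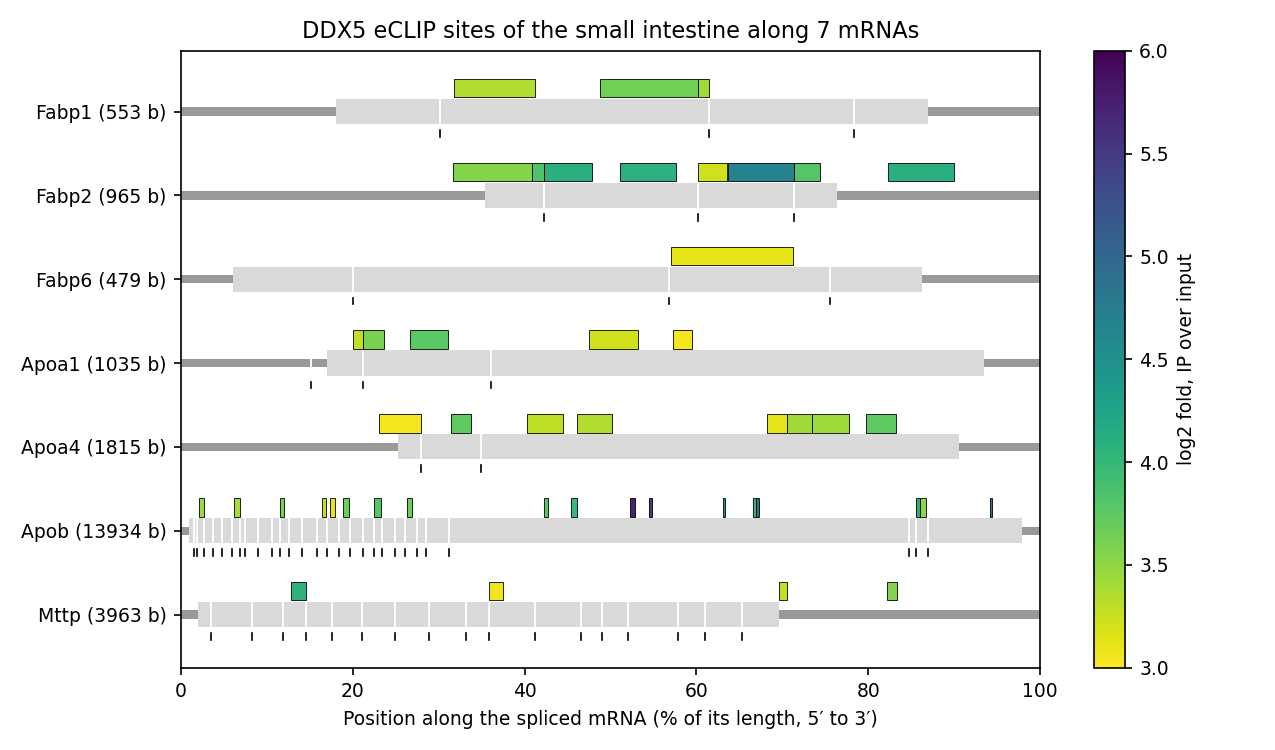
DDX5 sites of the small intestine along 7 spliced mRNAs, drawn as percent of mRNA length from the 5′ to the 3′ end, with the mRNA length in bases (b) beside each name. Thick grey marks coding sequence, thin grey untranslated sequence, black ticks and white lines exon joins, and each coloured box is 1 site with its log2 fold of IP over input on the colour scale; of the 47 boxes, 45 touch coding sequence.

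Almost all of the sites overlapped annotated coding sequence. Of the 47 sites, 45 (95.7%, exact 95% interval 85.5 to 99.5) overlapped coding bases, beside 405 of all 1278 sites of the list (31.7%, 29.1 to 34.3) and 360 of the 1231 sites on other genes (29.2%, 26.7 to 31.9). Without Apob, the gene with the most sites, the share was 27 of 29 (93.1%). Other epithelial genes had many coding sites too, with 9 of 9 for Sis, 4 of 4 for Anpep, 10 of 13 for Mgam, 8 of 10 for Krt20 and 6 of 7 for Vil1, against 2 of 8 for Epcam, 4 of 9 for Krt8 and 0 of 4 for Cdh1, so a high coding share was not particular to the lipid genes. The other two lay in 3′ untranslated regions, as site 8 of Fabp2 and site 4 of Mttp. These intervals cover counting error only, and sites of 1 gene are not independent.

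The log2 folds of the 47 sites ran from 3.04 to 5.72 with a median of 3.61, lower than the median of 4.29 over the whole list and close to the 3.73 of all 405 coding sites. A log2 fold above 4 was reached by 11 of the 47 (23.4%, 12.3 to 38.0), whereas 60.9% of all sites and 34.3% of all coding sites reached it. The −log10 p ran the other way, with a median of 17.2 for the 47 sites against 13.6 for all sites and 12.9 for all coding sites. Without Apob these medians were 3.43 for log2 fold and 30.5 for −log10 p. A large −log10 p at a modest fold goes with many reads in both IP and input. The reads behind the small intestine values were not recovered, so no counting interval can be given for them.

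**Figure D2:**
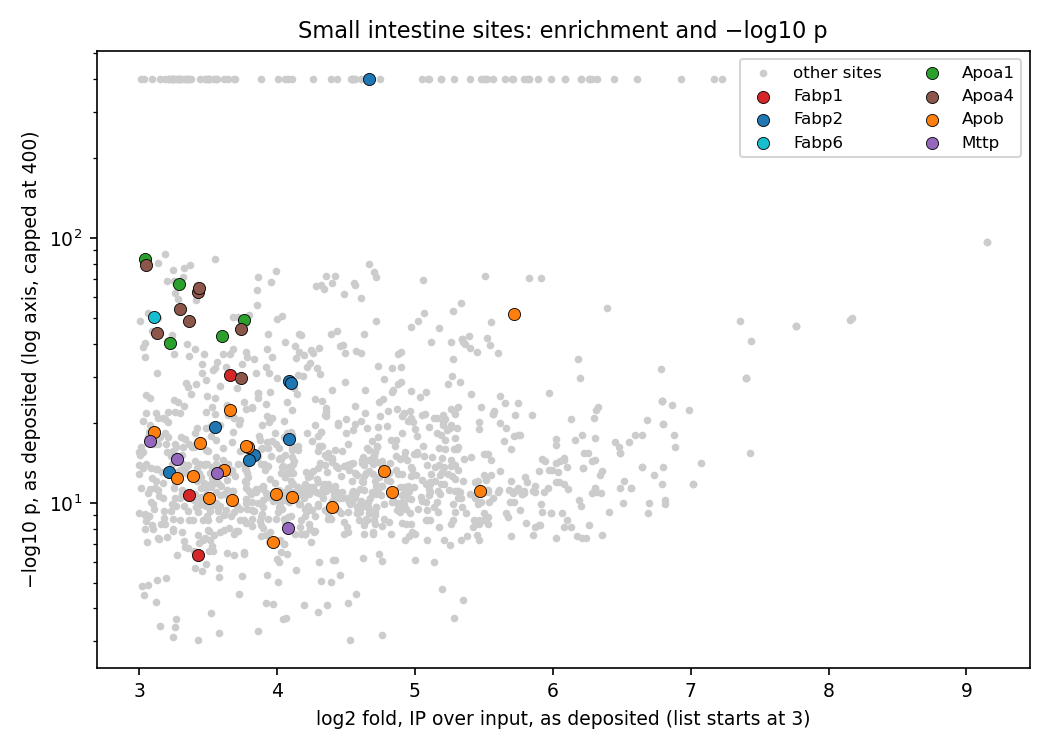
Each point is 1 site of the small intestine list, with log2 fold of IP over input on the horizontal axis and −log10 p on a log vertical axis, both as deposited; grey points are sites on other genes. The Apoa1 and Apoa4 points gather at folds under 4 and −log10 p of 29.7 or more, Apob spreads to folds of 5.72, and 1 Fabp2 site lies at the cap of 400.

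Fabp1 encodes the liver-type fatty acid-binding protein, the abundant lipid carrier of the proximal enterocyte. Its mRNA has 553 bases, 4 exons and 127 codons. All 3 sites lay in exon 2, which has 173 bases, and together they covered 122 coding bases, or 32.0% of the coding sequence. They are shown because Fabp1 is the gene that the study follows; here and below the sequence is from GRCm38, reads 5′ to 3′ on the strand of the gene, and the capitals mark the longest run of purines (A or G).
Fabp1 site 1 (chr6:71201617-71201668, plus strand, codons 26 to 43): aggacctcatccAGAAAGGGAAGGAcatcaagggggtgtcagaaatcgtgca
Fabp1 site 2 (chr6:71201711-71201773, plus strand, codons 57 to 78): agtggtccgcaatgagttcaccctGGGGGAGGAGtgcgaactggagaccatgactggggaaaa
Fabp1 site 3 (chr6:71201774-71201781, plus strand, codons 78 to 80): agtcAAGG

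Site 1 of Fabp1 had a log2 fold of 3.36, with 10.8 as its −log10 p. Site 2 had a log2 fold of 3.66, with a −log10 p of 30.5. Site 3, of 8 bases, had a log2 fold of 3.43, with a −log10 p of 6.37. Site 2 was the strongest by both values, and site 3 follows it directly and runs 1 base past the end of exon 2, so Fabp1 has 2 separate bound stretches when abutting sites are joined. Within the list these folds were low: 14.2%, 27.2% and 17.3% of all small intestine sites had a lower log2 fold than sites 1, 2 and 3. The colon lists held no region on Fabp1, enriched or not.

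Fabp2 encodes the intestinal-type fatty acid-binding protein, a close relative in size and gene structure. With 8 sites on an mRNA of 965 bases it had 8.29 sites per kb of mRNA, which ranked 3 among the 439 protein-coding genes with a site (median 0.484). Its sites covered 320 coding bases, or 80.8% of the coding sequence, the highest such share among 167 genes with coding bases in sites (median 6.43%). Fabp1 ranked 10 by that share. Each of the 4 exons of Fabp2 carried 2 sites, and its exon 2 has 173 bases, as in Fabp1.

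Along Fabp2 the log2 fold went from 3.55 at site 1, which spans the start codon, through 3.84, 4.09 and 4.08 at sites 2 to 4 to 3.21 at site 5, and was highest at site 6 with 4.67. Sites 7 and 8 had 3.80 and 4.10, the latter in the 3′ untranslated region. The −log10 p of the other sites lay between 13.1 and 28.8, while that of site 6 was at the cap of 400, one of only 2 coding sites of the list that reached it. On the spliced mRNA, site 2 ends at base 408 and site 3 begins at base 409, and site 6 ends at base 689 and site 7 begins at base 690. In each case the sites therefore abut across an exon join. Site 6, in exon 3, is printed as the highest −log10 p of the set.
Fabp2 site 6 (chr3:122898734-122898809, plus strand, codons 92 to 116): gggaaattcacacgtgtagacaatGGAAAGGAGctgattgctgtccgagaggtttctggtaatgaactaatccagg

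Fabp6 encodes the ileal bile acid-binding protein, made in the distal small intestine. Its 1 site covered 68 coding bases of exon 3. The log2 fold was 3.11, and the −log10 p 50.3. Only 4.07% of the list had a lower fold, and the −log10 p was above that of each Fabp1 site. It is printed to be set beside Fabp1 and Fabp2.
Fabp6 site 1 (chr11:43597486-43597553, minus strand, codons 82 to 104): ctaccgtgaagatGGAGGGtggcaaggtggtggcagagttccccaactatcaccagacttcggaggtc

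The fatty acid transporter Cd36 had no region in any of the 3 lists. The further binding and uptake genes set beside the members included Fabp3, Fabp4, Fabp5 and Fabp7, the other tissue forms of the family, with Scarb1, Npc1l1, Slc27a1, Slc27a2, Slc27a4, Got2 and Cav1. Of the 12 genes of this group, 1 had a small intestine site, the cholesterol importer Npc1l1, in coding sequence at a log2 fold of 3.92 (−log10 p, 4.19).

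Acsl3 and Acsl5 encode long-chain acyl-CoA synthetases, which activate fatty acids for triglyceride synthesis, and had no small intestine site. The next enzymes of this route did include one with several sites. Dgat1, which makes the last step to triglyceride, held 7 sites with log2 folds from 3.04 to 4.94, 3 of them in coding sequence, and was the only 1 of 19 acyl-CoA and triglyceride genes with a site in the small intestine.

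Apob encodes apolipoprotein B, the structural protein of the chylomicron, on an mRNA of 13934 bases and 29 exons. By the annotated transcript, its 18 sites all lay in coding sequence, from codon 52 to codon 4340 of 4505. The annotation takes no account of editing of the mRNA, so which sites lay in translated sequence was not tested. By number it ranked 3 among the 439 genes, after 2900026A02Rik and Muc13 with 20 sites each, against a median of 2. By length it was less dense, with 1.29 sites per kb of mRNA and 9.51% of the coding sequence in sites. Exon 26, which has 7467 bases, held 7 of the 18 sites, exon 28 held 2 and each of 9 other exons held 1.

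The folds of Apob were not even along the mRNA. Sites 1 to 8, in exons 3 to 23, had log2 folds from 3.11 to 3.79. Sites 9 and 10, in exon 26, had log2 folds of 3.78 and 3.99. Sites 11 to 18, from codon 2387 on in exons 26 to 29, had log2 folds from 3.51 to 5.72. The highest 2 were neighbours in exon 26, site 11 at a log2 fold of 5.72 (−log10 p, 51.9) and site 12 at 5.48 (−log10 p, 11.1). In the list, 87.8% and 83.8% of sites had a lower fold than these. No other site of the 47 exceeded 4.84. The −log10 p of the other Apob sites was between 7.13 and 22.4. Both sequences are printed as the highest folds of the set.
Apob site 11 (chr12:8008678-8008751, plus strand, codons 2387 to 2411): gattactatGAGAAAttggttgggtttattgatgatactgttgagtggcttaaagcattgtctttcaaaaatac
Apob site 12 (chr12:8008974-8009021, plus strand, codons 2485 to 2501): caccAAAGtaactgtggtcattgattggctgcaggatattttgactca

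Apoa1 and Apoa4 encode apolipoproteins A-I and A-IV and lie in 1 gene cluster on chromosome 9, at chr9:46228580-46230466 and chr9:46240696-46243459. Both showed low folds with high −log10 p. The 5 sites of Apoa1 had log2 folds of 3.29, 3.60, 3.76, 3.22 and 3.04 from the 5′ to the 3′ end. Their −log10 p was 67.0, 42.6, 49.2, 40.4 and 83.6 in the same order, so the site with the lowest fold had the highest −log10 p. Sites 1 and 2 abut on the spliced mRNA across the join of exons 2 and 3, at bases 219 and 220.

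The 8 sites of Apoa4 had log2 folds from 3.05 to 3.74 with a median of 3.39, and −log10 p from 29.7 to 79.5 with a median of 51.3. Site 1 spans the start codon and again combined the lowest fold with the highest −log10 p. Exon 3, the last, held 6 of the 8 sites, and sites 5 to 7 follow each other without a gap over codons 261 to 318. The sites covered 40.2% of the coding sequence of Apoa4, rank 6 of 167, and 20.8% of that of Apoa1, rank 23. By sites per kb of mRNA Fabp1 ranked 6, Apoa1 ranked 9 and Apoa4 ranked 12 of 439, with 5.42, 4.83 and 4.41. The site of Apoa1 with the highest fold and a purine-rich site of Apoa4 are printed as examples.
Apoa1 site 3 (chr9:46229173-46229218, plus strand, codons 34 to 49): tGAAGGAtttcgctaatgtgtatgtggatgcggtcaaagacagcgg
Apoa4 site 3 (chr9:46242375-46242450, plus strand, codons 91 to 116): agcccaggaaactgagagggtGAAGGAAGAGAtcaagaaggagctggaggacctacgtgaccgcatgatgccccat

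Mttp encodes the large subunit of the microsomal triglyceride transfer protein. Its 4 sites had log2 folds of 4.08, 3.08, 3.28 and 3.56, with −log10 p of 8.02, 17.2, 14.7 and 12.9. Only the first 2, in exons 4 and 11, lay mainly in coding sequence. Site 1 lay wholly in it, whereas site 2 had 66 coding bases and began with 8 bases of the intron before exon 11. Site 3 reached 1 base into the last codon and otherwise lay past it, and site 4 was in the 3′ untranslated region, so of the 7 genes with sites Mttp had the least of its coding sequence covered (5.03%, rank 97 of 167). Site 2 held the longest purine run among the 47 sites, 15 bases.
Mttp site 2 (chr3:138109103-138109176, minus strand, codons 449 to 470): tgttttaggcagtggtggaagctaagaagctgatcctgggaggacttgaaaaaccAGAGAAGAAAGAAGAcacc

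P4hb, which encodes the smaller partner of MTTP in the transfer protein, held 3 sites with log2 folds from 3.16 to 4.90. It was the only 1 of 19 further lipoprotein genes with a small intestine site; the cluster neighbours Apoc3 and Apoa5 had none, nor had Apobec1, which edits Apob mRNA. The 6 bile acid genes had no site. Of 10 regulators, Hnf4a, a nuclear receptor that controls many of these genes, had 2 sites with log2 folds of 3.05 and 3.35 outside coding sequence, and its relative Hnf4g had 1 site with 4.58. In all, 5 of the 66 further genes of the pathway carried 14 sites in the small intestine, where 2% of all protein-coding genes had a site. The counts of single groups are too small to be read against that share. The pathway list was also written with earlier results of these data known, so its total is not a test either.

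The coding bases inside the sites were richer in purines than the rest of the same coding sequence in 6 of 7 genes. The purine percent was 66.4 in and 58.3 outside the sites of Fabp1, 62.2 and 52.8 for Mttp, 61.8 and 55.2 for Apoa1, and 61.6 and 55.0 for Apoa4. The difference was small for Fabp2, 60.9 and 59.2, and for Apob, 52.0 and 51.3, and ran the other way for Fabp6, 57.4 and 59.8. GC percent showed no common direction, being higher in the sites of Fabp1 (54.1 against 45.2) and lower in those of Mttp (46.7 against 49.6). The longest purine run had a median of 7 bases both in the 47 sites and in all 405 coding sites, which include those of these genes. The median purine percent was 56.8 in the 45 coding sites of these genes and 58.7 in the 360 coding sites on other genes. The sites printed above were not chosen at random, and several hold longer runs. The bases of 1 gene are not independent and no test was made.

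**Figure D3:**
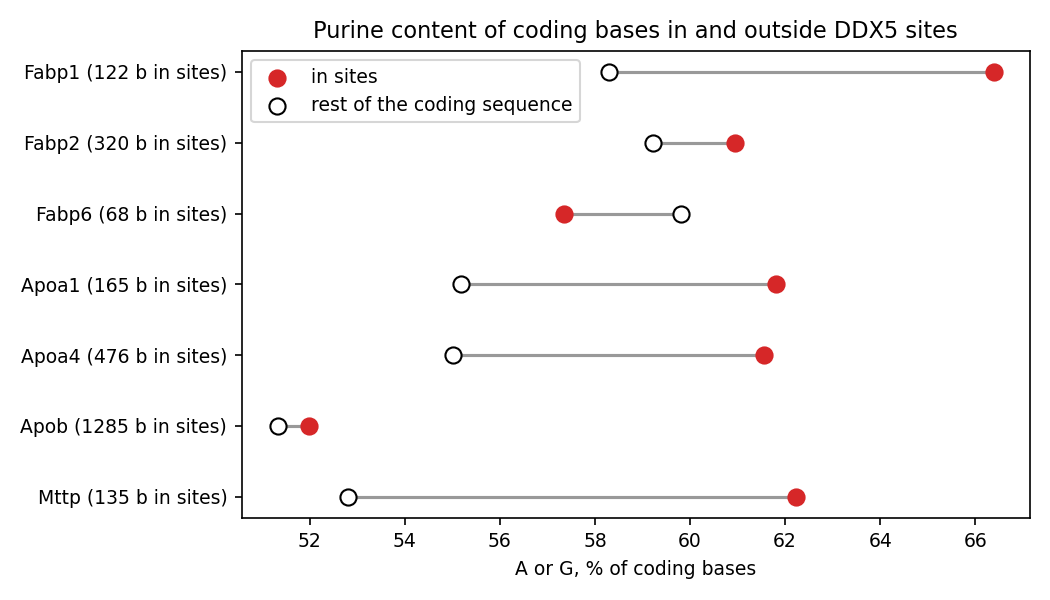
Percent of coding bases that are A or G, in the small intestine sites of each gene (red) and in the rest of its coding sequence (open), with the number of coding bases (b) in sites beside each name. The red point lies to the right in all genes but Fabp6.

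Among the 47 sites, those of at least 25 bases held no stretch of 25 bases that occurred in transcripts of another gene. The searched sites of the related Fabp and Apoa genes therefore share no identical stretch of that length. Fabp1 site 3, Fabp2 site 2 and Apoa1 sites 1 and 5 were too short to be searched, with 8, 16, 12 and 23 bases. Near matches were not searched. The search covered the 55 of 60 member regions, colon included, that had at least 25 bases.

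The genes whose pattern over the 3 lists was most like that of Fabp1 were sought among genes with at least 2 coding sites in the small intestine and no region in either colon list. Of 92 genes with at least 2 coding sites, 16 met this, and Fabp1, Fabp2, Apoa1, Apoa4, Apob and Mttp were 6 of them. By the difference of the highest log2 fold from that of Fabp1, the nearest were Apoa4 (0.08 apart), Apoa1 (0.11), the brush border peptidase Anpep (0.17), the glucose transporter Slc5a1 (0.21) and the peptidase Ace (0.31).

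In the colon, the mAb list held a region on 1 of the 10 genes, Acsl3, where 22.6% of protein-coding genes had one. The rAb list held regions on 2 of the 10, Acsl3 and Acsl5, where 15.6% had one. Sites were fewer. Acsl3 had 2 in the mAb list, in which 0.583% of protein-coding genes had a site, and no member had one in the rAb list, in which 0.442% did. No colon region lay on Fabp1, Fabp2, Fabp6, Cd36, Apoa1, Apoa4, Apob or Mttp. The paper reports Fabp1 RNA in epithelium of the small intestine and not of the colon. RNA levels were not used here, so absence of RNA and absence of binding cannot be told apart. The small intestine libraries were sequenced with a paired-end protocol and the colon libraries with a single-end one, so tissue, protocol, mouse and selection of peaks changed together and cannot be told apart.

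The 11 regions on Acsl3 in the mAb list had log2 folds from 0.56 to 4.61 with a median of 1.89, where the median of the list was 1.15. All 11 were above 0, as were 83.9% of the list. The reads behind a colon region could be traced from its log2 fold and −log10 p, and 8 of the 11 rested on 3 to 5 IP reads. The first 3, close to the gene's start, held more. Region 1 had 21 IP and 3 input reads, a log2 fold of 3.37 (95% interval of the read ratio, 1.63 to 5.76) and a −log10 p of 5.60. Region 2 had 11 and 3 reads and a log2 fold of 2.44 (0.52 to 4.92), short of both cutoffs with a −log10 p of 2.30. Region 3 had 33 and 2 reads and a log2 fold of 4.61 (2.64 to 7.71), with a −log10 p of 10.7. The interval of region 1 and that of region 2 overlap, so the 2 are not distinguished by counting error alone.

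Regions 1 and 3 were the 2 sites, and began 307 and 537 bases from the start of Acsl3 in its first intron. Utp14b, a gene of ribosome assembly, is annotated on the same strand and has an intron there too, so whether the fragments came from Acsl3 or Utp14b RNA cannot be told apart. Regions 4 and 5 lay in exons of Utp14b and deep in an intron of Acsl3. Regions 7 and 9 shared at least 1 stretch of 25 bases with transcripts of 77 and 803 other genes. Only regions 10 and 11, on 3 IP reads each, lay in coding sequence of Acsl3, in exons 6 and 9. Sites within 1000 bases of a gene start made up 22.4% of the mAb list, 9.34% of the rAb list and 27.4% of the small intestine list. The 2 sites are printed to be set beside the coding sites of the small intestine, with a GC content of 72.4% and 80.6% against a median of 49.1% for the 47.
Acsl3 region 1, mAb (chr1:78658132-78658189, plus strand, intron): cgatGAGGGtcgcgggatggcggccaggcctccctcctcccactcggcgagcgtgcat
Acsl3 region 3, mAb (chr1:78658362-78658433, plus strand, intron): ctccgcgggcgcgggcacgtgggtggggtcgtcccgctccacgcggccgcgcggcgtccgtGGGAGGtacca

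In the rAb list, the region on Acsl3 lay in the 5′ untranslated region of exon 1, with 3 IP and 3 input reads, a log2 fold of 1.65 (−1.25 to 4.55) and a −log10 p of 0.81. It overlapped none of the 11 mAb regions, the nearest being 53 bases away, and it also lies in the 5′ untranslated region of Utp14b. The region on Acsl5 lay in coding sequence of exon 13, codons 394 to 405, with 3 IP and 2 input reads, a log2 fold of 2.24 (−0.89 to 5.82) and a −log10 p of 1.03. Both intervals include 0, so enrichment over input was not detectable at this depth.

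**Figure D4:**
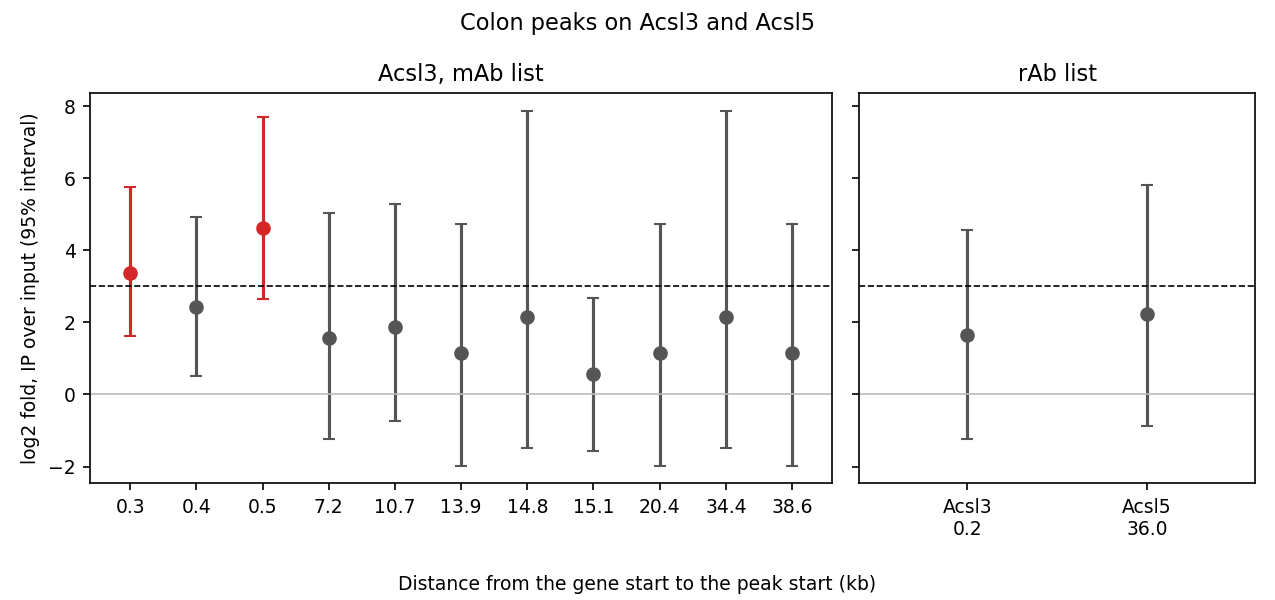
Log2 fold of IP over input for the 11 Acsl3 regions of the mAb list and the 2 regions of the rAb list, with exact 95% intervals from the traced reads, ordered by distance in kb from the gene's start; red marks regions with log2 fold and −log10 p above 3 and the dashed line the fold cutoff of 3. The 2 red regions begin 307 and 537 bases from the start of Acsl3, and the intervals of all but the first 3 mAb regions include 0.

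Lipid genes outside the list did have regions in the colon. Of the 66 further pathway genes, 27 had a region in the mAb list (108 regions) and 19 in the rAb list (75 regions), where 22.6% and 15.6% of all protein-coding genes did. None of the 66 had a site in either list. Since 0.583% and 0.442% of all protein-coding genes had one, nothing is read from this. Genes with many regions included the fatty acid synthase Fasn with 23, Hnf4a with 10 and P4hb with 8 for mAb, and the desaturase Scd2 with 15 and Fasn and P4hb with 10 each for rAb. The 5 genes with a site in the small intestine included Dgat1, whose 1 mAb region had a log2 fold of 1.56, and P4hb, whose 8 mAb regions had log2 folds from −1.52 to 0.56 and whose 10 rAb regions had log2 folds from −1.40 to 1.65. Hnf4a was higher, with 10 mAb regions from 0.56 to 2.15 and 4 rAb regions from 1.65 to 3.98, where the −log10 p reached 2.41 at most. Npc1l1 and Hnf4g had no colon region.

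The labelled tissues were checked against marker genes. The small intestine list held sites on 5 of 8 epithelial markers and on 3 of 5 enterocyte markers, Sis, Anpep and Mgam. It held none on colonocyte, goblet, Paneth, T and B cell or stromal markers. Since only 2% of all protein-coding genes had a site, nothing is read from this absence. The mAb list held regions on 7 of 8 epithelial, 4 of 4 colonocyte and 3 of 3 goblet markers, and the rAb list on 7 of 8, 0 of 4 and 2 of 3. The share of all protein-coding genes with a region was 22.6% for mAb and 15.6% for rAb. Of the 5 enterocyte markers, Mgam also had 4 regions in the mAb list, 1 of them a coding site with a log2 fold of 3.37, and 7 regions in the rAb list with a median log2 fold of 3.24 and none a site. Of 3 Paneth markers, 2 had regions in each colon list. Neither held a region on the 6 T and B cell markers, whereas 4 of 6 stromal markers had 78 regions for mAb and 3 of 6 had 64 for rAb, Vim, Col1a1 and Col3a1 in both. Their part in the colon values was not tested. The mAb input was inferred to hold 1.48 times the reads of its IP library, and the rAb input 3.15 times. Both ratios rest on reading the commonest log2 fold as 3 IP over 1 input read, not on library totals.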

How the data were processed

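The authors trimmed the reads with cutadapt 1.9.1, aligned them with STAR 2.4.0i to mm10 (GRCm38), used SAMtools 1.4.1, per the labels, and found peaks in the IP reads with CLIPper; other versions are not given in the sources used here. The deposited log2 fold is IP over size-matched input reads, each scaled for depth, and the deposited −log10 p tests the reads of a peak, not replicates. Small intestine peaks of 2 replicates were merged by Irreproducible Discovery Rate and filtered at 3 for both values. A further peak list whose columns match no sample was not used.

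Peaks were assigned to GENCODE M21 genes by at least 1 base on the same strand. Coding sequence took priority over other regions. Exons and codons follow the principal transcript. Sequence was read from GRCm38 with pysam 0.24.0. Colon reads were traced by taking the commonest fold as 3 IP over 1 input read and matching the −log10 p within 1%; an input of 1 may be 0 or a pseudocount. The tracing was tested on simulated data. Intervals (scipy 1.17.1) are exact, at 95%, and cover counting error only, since PCR reads are not independent molecules. Total reads per library are not given in the lists.

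The genes, pathway list and markers were chosen with earlier results of these data known. All 10 genes are described, with pathway genes that hold a site, the 3 with the most regions per colon list, and the 5 most like Fabp1. 1 pathway gene is not reported here.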

Additional observations from a re-analysis of the deposited data

How the results depend on the processing

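Most of the values held within a factor of 1.5, or within their counting interval, when the cutoffs, the overlap rule, the strand or the region rule were changed: 74 of 82 alternatives over 21 results, and 8 moved. Several colon alternatives could not move, since a count of 0 stays 0 under a stricter rule. A share of 100% above 0 likewise stays at 100% in any subset. With a log2 fold cutoff of 4 in place of 3, the small intestine kept sites on 3 of the 10 genes (Fabp2, Apob and Mttp), 11 sites, 0 on Fabp1 and 3 further pathway genes, and the mAb list kept 1 site. When only exons of the gene were counted, the mAb list had 2 regions, 0 sites and 0 genes with a site. With a −log10 p cutoff of 5, all 47 small intestine sites stayed. The small intestine list begins at 3, so a fold cutoff of 1 gives no value there. Alternatives added after the data were seen were leaving out Apob and joining abutting sites for the share with a fold above 4. Leaving out the member with the most regions gave no value in the colon, where Acsl3 held all mAb regions and the rAb list had 1 region on each of 2 members, and no rAb region reached 10 IP reads. No paired analysis was possible because the small intestine list merges both replicates into 1 value per site, and leaving out a replicate was not possible for the same reason. The colon intervals above span several log2 units, so read depth limits what can be said of Acsl3 and Acsl5.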
